A study of Mus musculus with 6 samples.

Results

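The 39 Hox genes of the 4 mouse clusters (Hoxa on chromosome 6, Hoxb on 11, Hoxc on 15 and Hoxd on 2) were read out from RNA of mouse aortas. They are the genes in a table of 55487 whose symbol is Hoxa, Hoxb, Hoxc or Hoxd followed by a paralogue number of 1 to 13, so no measured value chose them. Hox genes encode homeodomain transcription factors that set position along the body axis. Genes at the 3′ end of a cluster carry low paralogue numbers and act toward the head, and those at the 5′ end carry high numbers and act toward the tail. Smooth muscle cells of the adult aorta keep part of this code, and higher-numbered genes are known to be used more toward the abdomen than in the arch.

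The study asked what loss of ChemR23, a receptor for chemerin and for a lipid that resolves inflammation, does outside blood cells in atherosclerotic mice. There were 3 libraries labelled as recipients homozygous for the e allele of ChemR23 that also lacked Apoe, here called labelled deficient. The other 3 were labelled as recipients lacking Apoe alone, here called labelled control. All recipients lacked apolipoprotein E, and all had received marrow that lacked Apoe but had a working ChemR23 gene at 8 to 10 weeks of age, so that blood-derived cells could still express the receptor. They rested for 4 weeks and ate a Western diet with 21% fat and 0.15 to 0.2% cholesterol for 6 weeks. The adventitia was stripped off, leaving media and intima. The sources used here do not name the stretch of aorta that went into each library. The replicate numbers below only name the libraries.

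Several features of the libraries bear on what follows. Each held 30887855 to 38600604 reads assigned to genes. All 4 smooth muscle markers were abundant, with Acta2 at 613377 to 835257 normalized counts in labelled deficient libraries and 587012 to 664785 in labelled control libraries. The 4 endothelial markers were present too, summing to 56798 to 74949 normalized counts in labelled deficient libraries and 58817 to 84119 in labelled control libraries. The 6 adventitial fibroblast markers were all detected as well, although the labels name media and intima. Which cells gave their RNA was not tested. The markers summed to 12128 to 19539 normalized counts in labelled deficient libraries and 19325 to 25060 in labelled control libraries. Dcn was the most abundant of them, at 5978 to 9097 in labelled deficient and 11216 to 15812 in labelled control libraries. Dcn and Pdgfra were lower in all labelled deficient libraries. Lum, Pi16, Dpt and Ly6a overlapped between groups, and Lum had a log2 difference above 0 (0.17 ± 0.26, SE). Cmklr1, which encodes ChemR23, had 2388, 1788 and 1551 normalized counts in labelled deficient libraries, against 1396, 1028 and 1720 in labelled control libraries. The groups overlapped, and its RNA was not lower in the labelled deficient libraries. The genotype labels do not state whether the e allele lowers the RNA counted here, so Cmklr1 cannot serve as a check of the labels. The authors' deposited table calls the mean of the labelled control libraries its treated mean, and all 33 of its Hox fold changes run opposite to those given here. Every direction below therefore rests on the sample labels. Labelled deficient replicates 1 and 2 had a female pattern (Xist at 16083 and 13146 normalized counts). In contrast, labelled deficient replicate 3 and all 3 labelled control libraries had the Y-linked Ddx3y at 6058 to 6796. Xist was at 373 in labelled deficient replicate 3, above the 13.8, 8.87 and 22.0 of the labelled control libraries. The source of that Xist RNA was not tested. Summed adipocyte markers were 41.8, 11472 and 10.1 in labelled deficient libraries 1, 2 and 3, against 3155, 17482 and 2751 in labelled control libraries 1, 2 and 3. The globin sum was 1590 to 10533 normalized counts in labelled deficient libraries and 89342 to 274654 in labelled control libraries. The part of sex, fat and blood in the Hox values was not tested, except where values without some libraries are given.

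The aorta expressed most of the anterior and central Hox genes and few of those numbered above 10. At least 1 read was found for 33 of the 39 genes, 29 had a mean of at least 1 normalized count and entered the test, and 26 had a mean of at least 10. By class, the test took 6 of 8 anterior genes (paralogues 1 to 3), all 15 central genes (4 to 8) and 8 of 16 posterior genes (9 to 13). The 6 without any read were Hoxb1, Hoxd1, Hoxd11, Hoxc12, Hoxd12 and Hoxb13, where a count of 0 allows up to 3 reads per library. Another 4 posterior genes, Hoxc11, Hoxa13, Hoxc13 and Hoxd13, had 0 to 5 reads in every library and were not tested.

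Levels of different genes were compared as normalized counts per kb of exon, the count divided by the joined length of all annotated exons. On that scale the highest mean was that of Hoxa7 (579), followed by Hoxb7 (450), Hoxb6 (424), Hoxb3 (370) and Hoxa5 (319). Hoxa7 and Hoxb7 also led when only the longest coding transcript set the length, at 829 and 538 per kb, but there Hoxb3 (493), Hoxb2 (464) and Hoxa3 (430) stood above Hoxb6 (424), and Hoxa5 (319) was no longer among the first 5. Paralogue group 7 held 26.3% of the summed Hox level per kb, group 6 held 15.7% and group 3 held 14.2%. Groups 9 and 10 held 4.41% and 2.13%, and group 11 held 0.0636%. Past paralogue 10 the level per kb was thus close to 0.

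**Figure D1:**
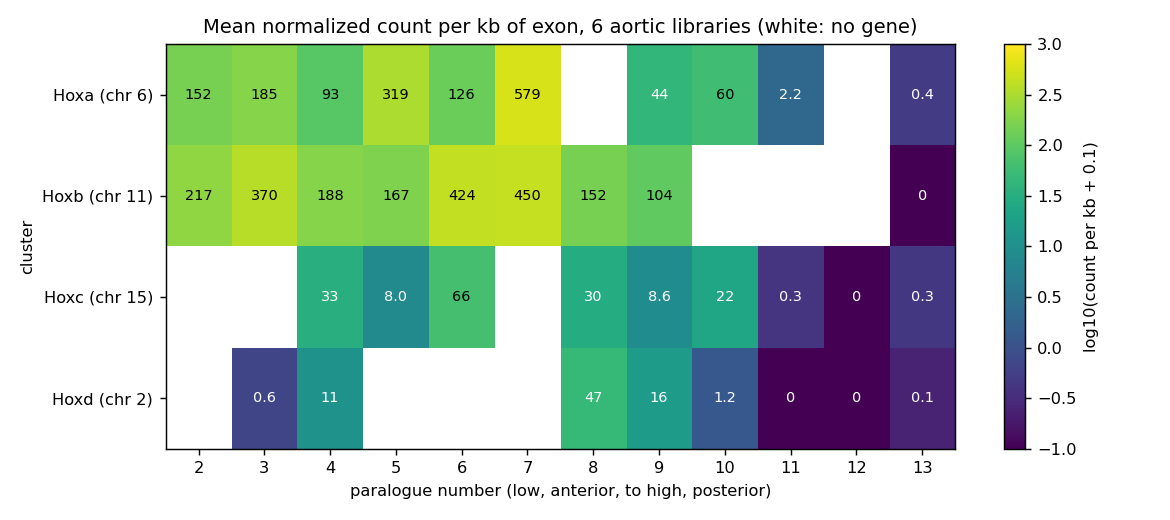
Mean normalized count per kb of exon over 6 libraries for Hox genes of paralogues 2 to 13, with paralogue number across and cluster down; white fields have no gene and colour follows a log10 scale. The highest field is Hoxa7 at 579 per kb, and paralogue 12 is at 0 in both clusters that carry it.

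None of the 5 genes with the highest level per kb passed the test between groups in limma; Hoxb3 is given with the anterior genes. Hoxa7, which acts in thoracic vertebrae, had 1935, 1368 and 1589 normalized counts in labelled deficient libraries, against 1896, 1501 and 1707 in labelled control libraries. Hoxb7 had 814, 635 and 747 normalized counts in labelled deficient libraries, against 709, 612 and 653 in labelled control libraries. Hoxb6 had 859, 808 and 730 in labelled deficient libraries, against 912, 743 and 942 in labelled control libraries. In these 3 genes the groups overlapped, and limma's log2 differences (labelled deficient minus labelled control) were −0.07 ± 0.14, 0.15 ± 0.11 and −0.11 ± 0.11 (SE). Hoxa5, needed for lung development, had 577, 626 and 652 normalized counts in labelled deficient libraries, against 528, 535 and 670 in labelled control libraries, which again overlapped (log2 difference 0.10 ± 0.12, SE). A share of 20.4% of the Hoxa7 exons overlaps a gene on the other strand, and the sources used here name no strand setting for the counting.

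In limma, 28 of the 20669 genes tested, 0.135%, passed an adjusted p under 0.05 (0.0726% higher and 0.0629% lower in labelled deficient libraries), and 0 of the 29 tested Hox genes did. edgeR on recovered reads also called 0 Hox genes, against a background of 0.00484%, whereas DESeq2 on recovered reads called 1, Hoxa2, against a background of 4.38%. At an unadjusted p under 0.05 stood 5 Hox genes, 2 of them higher and 3 lower in labelled deficient libraries, against a background of 12.2% of all genes tested, 6.36% higher and 5.79% lower. For 7 of the 29, the labelled deficient and labelled control libraries did not overlap, in 5 with all labelled deficient libraries higher and in 2 with all lower. Over all genes tested 17.0% were of that kind, 8.80% higher and 8.24% lower. The shares were not compared by a test. The limma log2 difference was above 0 in 14 and below 0 in 15 Hox genes, with a median of −0.03, beside −0.0063 over all genes tested. In bulk tissue, fewer cells of a type and less RNA per cell cannot be told apart.

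**Figure D2:**
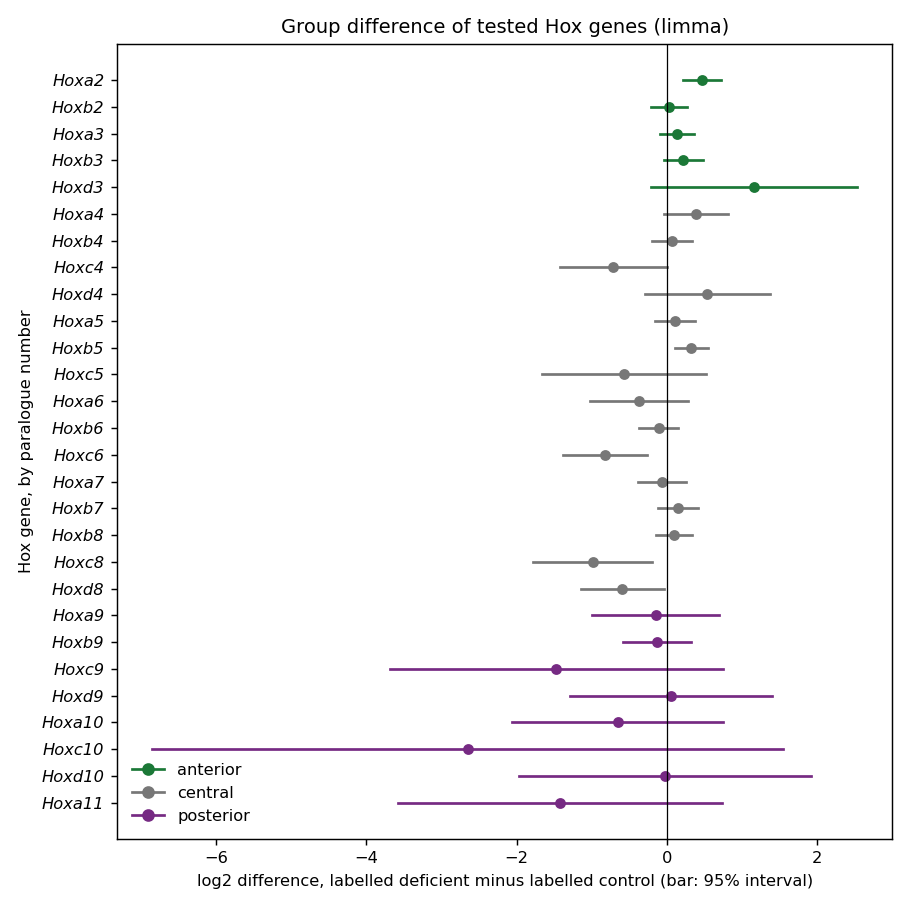
Log2 difference between labelled deficient and labelled control libraries (points) with its 95% interval (bars, limma, n = 3 each) for tested Hox genes in order of paralogue number. The anterior points shown lie above 0, and the intervals widen toward the posterior genes, with that of Hoxc10 running from −6.85 to 1.55.

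Hoxa2 had the lowest p of the family. Hoxa2 (ENSMUSG00000014704, GRCm38 chromosome 6, 52162417 to 52164831, minus strand) gives part of the pharyngeal arches its identity. It had 308, 331 and 302 normalized counts in labelled deficient libraries, against 231, 236 and 213 in labelled control libraries. All labelled deficient libraries were higher, and the gap between the groups exceeded the spread within either. The means were 314 ± 15.4 in labelled deficient libraries and 227 ± 11.9 in labelled control libraries (SD, n = 3 each), a log2 difference of 0.47 with a 95% interval of 0.22 to 0.72. limma's adjusted p was 0.154 and edgeR's 0.166, neither past the threshold, whereas DESeq2's was 0.0389. The authors' deposited table lists Hoxa2 with an adjusted p of 0.0388 and a log2 fold change of −0.41 in its own direction, the only one of 26 Hox genes with an adjusted p there that passed, where 4.38% of all genes did. Leaving out any 1 library kept the limma difference between 0.42 and 0.50. It was 0.41 among the 4 libraries with Y-linked expression, where labelled deficient replicate 3 alone stands for its group. A stretch of 15.04% of its exons is shared with another annotated gene on the same strand.

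Promoter windows of 300 bases (250 before to 50 after the start) were taken from RefSeq on GRCm38.p6, where 22 of the 39 Hox genes matched with 24 windows. They are shown for Hoxa2, whose groups lay apart, and for the posterior neighbours Hoxa9 and Hoxa10 of the same cluster, whose within-group SD was the highest among Hoxa genes with a mean of at least 10. Capitals mark matches on either strand to TGATTNAT, a PBX-HOX composite site, and to TGACAG, a MEIS site. The CDX site TTTATG was searched as well.
Hoxa2 (chr6:52164782-52165081, minus strand): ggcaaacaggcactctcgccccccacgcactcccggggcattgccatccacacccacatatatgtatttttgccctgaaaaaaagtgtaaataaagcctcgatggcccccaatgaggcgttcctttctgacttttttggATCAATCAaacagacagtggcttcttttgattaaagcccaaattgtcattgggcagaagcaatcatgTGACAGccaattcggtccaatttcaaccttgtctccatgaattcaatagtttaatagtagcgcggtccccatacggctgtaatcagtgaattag
Hoxa9 (chr6:52227321-52227620, minus strand): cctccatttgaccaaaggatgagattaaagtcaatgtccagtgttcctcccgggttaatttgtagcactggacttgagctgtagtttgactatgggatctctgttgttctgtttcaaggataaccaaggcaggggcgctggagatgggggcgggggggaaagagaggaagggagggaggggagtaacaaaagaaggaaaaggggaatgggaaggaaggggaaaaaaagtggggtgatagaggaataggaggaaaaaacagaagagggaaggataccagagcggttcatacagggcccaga
Hoxa10 (chr6:52234890-52235189, minus strand, the start site closer to Hoxa9): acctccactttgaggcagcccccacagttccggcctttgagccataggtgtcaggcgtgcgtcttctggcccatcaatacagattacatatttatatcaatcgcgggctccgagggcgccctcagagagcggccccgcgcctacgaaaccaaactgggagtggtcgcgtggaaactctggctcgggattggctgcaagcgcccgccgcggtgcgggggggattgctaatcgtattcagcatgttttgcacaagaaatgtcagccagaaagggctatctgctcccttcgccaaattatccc
The Hoxa2 window held 1 PBX-HOX match and 1 MEIS match, and the other windows shown held no match. Over all 24 Hox windows, 2 held TGATTNAT, 2 held TGACAG and 5 held TTTATG, where 3.22%, 19.2% and 11.9% of 32851 windows did. CpG dinucleotides numbered 9 in the Hoxa2 window, 4 in the Hoxa9 window and 21 in the Hoxa10 window, with a median of 14.5 over the Hox windows and 7 over all windows. These matches are letters in a window and were not tied to binding in these samples.

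Anterior genes tended to small positive differences. Hoxb3, which works with Hoxa3 in pharyngeal arch development, had 1712, 1627 and 1726 normalized counts in labelled deficient libraries, against 1550, 1615 and 1212 in labelled control libraries. The groups lay just apart, with labelled deficient replicate 2 little above labelled control replicate 2, and labelled control replicate 3 was the lowest (log2 difference 0.22 ± 0.11, SE, limma adjusted p = 0.490). Without that library the difference was 0.093. More than 50% of its exons (52.9%) overlap a gene on the other strand. Hoxa3, needed for the thymus, parathyroid and carotid body, had 1036, 1150 and 1324 in labelled deficient libraries, against 1057, 1077 and 1036 in labelled control libraries, with overlap. Exons shared with a gene on the other strand made up 25.4% in Hoxa3 and 27.3% in Hoxb2. Hoxb2 overlapped likewise, at 671, 835 and 788 in labelled deficient libraries, against 755, 699 and 784 in labelled control libraries.

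Hoxd3 had 4.75, 2.16 and 4.04 normalized counts in labelled deficient libraries, against 1.72, 0 and 2.004 in labelled control libraries. The labelled deficient libraries were all higher, but each value stands for at most 5 reads. Labelled deficient replicate 2 and labelled control replicates 1 and 3 had 2 reads each, and only the scaling by library set them apart. A share of 62.3% of the Hoxd3 exons is shared with other genes on the same strand, Hoxd4 among them. The 6 tested anterior genes had a median log2 difference of 0.18, all above 0. Without labelled control replicate 3 the median was 0.11, with 5 of 6 above 0.

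The 9 central genes of clusters Hoxa and Hoxb had log2 differences between −0.37 (Hoxa6) and 0.39 (Hoxa4). Hoxb5 (ENSMUSG00000038700, chromosome 11, 96303336 to 96306121, plus strand), which acts in endothelial precursors and in enteric neural crest, had 492, 551 and 507 normalized counts in labelled deficient libraries. In labelled control libraries it had 422, 420 and 391.7. Every labelled deficient library was above every labelled control library. The means were 517 ± 31.1 in labelled deficient libraries and 411 ± 17.2 in labelled control libraries (SD, n = 3 each), with a log2 difference of 0.33 ± 0.09 (SE) and a limma adjusted p of 0.220. Hoxa4 had 154, 178 and 168 normalized counts in labelled deficient libraries, against 145, 143 and 99.2 in labelled control libraries. Its groups did not overlap, with labelled control replicate 3 again the lowest (log2 difference 0.39 ± 0.18, SE, limma adjusted p = 0.459). Without that library the difference was 0.21.

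The central genes of cluster Hoxc and Hoxd8 all had negative log2 differences. Hoxc6 (ENSMUSG00000001661, chromosome 15, 102998257 to 103011881, plus strand), a gene of the thoracic region, had 153, 104 and 91.0 normalized counts in labelled deficient libraries. In labelled control libraries it had 191, 164 and 256. All labelled deficient libraries were lower, and labelled control replicate 3 was the highest. Means were 116 ± 32.7 in labelled deficient libraries and 204 ± 47.5 in labelled control libraries (SD, n = 3 each), with a log2 difference of −0.82 ± 0.24 (SE) and a limma adjusted p of 0.239.

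Hoxc8, which patterns lower thoracic vertebrae and brachial motor neurons, had 67.4, 47.5 and 46.5 normalized counts in labelled deficient libraries, against 73.1, 91.0 and 179 in labelled control libraries. The groups did not overlap, though labelled deficient replicate 1 and labelled control replicate 1 were close to each other. The log2 difference was −0.99 ± 0.34 (SE), limma adjusted p = 0.310, and it was −0.61 without labelled control replicate 3. Hoxd8 had 126, 91.7 and 88.0 normalized counts in labelled deficient libraries, against 153, 116 and 197 in labelled control libraries, with overlap (log2 difference −0.59 ± 0.24, SE, limma adjusted p = 0.378). Hoxc4 had 76.9, 55.0 and 53.6 in labelled deficient libraries, against 108, 65.4 and 144 in labelled control libraries, with overlap as well. Hoxc5 had 11.4, 39.9 and 13.1 in labelled deficient libraries, against 29.3, 29.9 and 24.04 in labelled control libraries, and was the only Hoxc gene with a labelled deficient library on top. In cluster Hoxd the direction was not shared, since Hoxd4 had 34.2, 37.8 and 41.5 in labelled deficient libraries, against 39.6, 15.5 and 27.1 in labelled control libraries. Its groups overlapped too (log2 difference 0.54 ± 0.36, SE), and 52.3% of the Hoxd4 exons are shared with other genes on the same strand, Hoxd3 among them.

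Of the 6 tested Hoxc genes, 0 had a log2 difference above 0, and their median was −0.90, beside 0.08 for the 8 tested Hoxb genes. No test compared the clusters. Genes of 1 cluster are neighbours on a chromosome and are not independent. The 5 macrophage markers summed to 5528 to 29174 normalized counts in labelled deficient libraries and 3461 to 6643 in labelled control libraries. Most of that sum was Lyz2, whose groups overlapped, and the markers did not move alike. Cd68 was higher in all labelled deficient libraries. Adgre1, Csf1r and Cd14 overlapped, with log2 differences of 0.28 ± 0.41, 0.25 ± 0.42 and −0.04 ± 0.28 (SE). The part of macrophages and of the adventitial fibroblast markers given above in the Hoxc values was not tested.

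**Figure D3:**
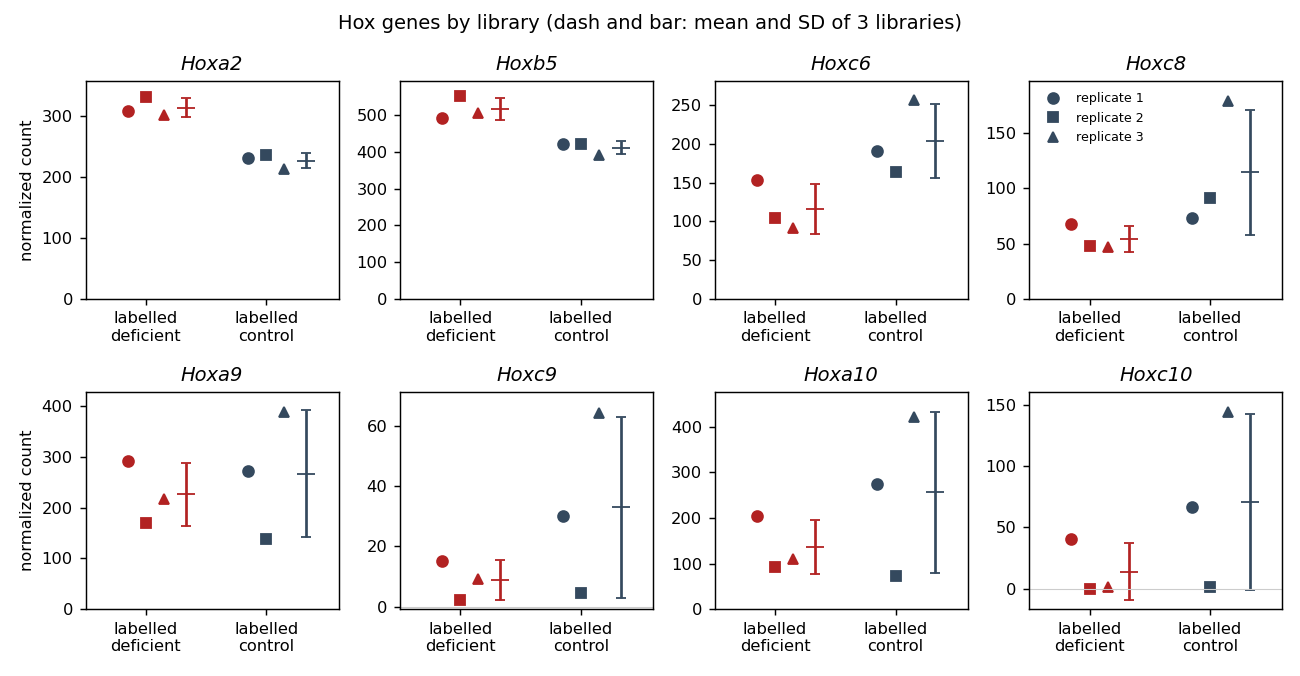
Normalized counts of 8 Hox genes in each library, labelled deficient left and labelled control right, with the mean and SD of 3 libraries beside the points. Hoxa2 and Hoxb5 are tight and separate, whereas Hoxa9, Hoxc9, Hoxa10 and Hoxc10 are each highest in labelled control replicate 3 and spread widely within both groups.

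The posterior genes differed more between libraries of 1 group than between groups. Hoxc10 (ENSMUSG00000022484, chromosome 15, 102966796 to 102971893, plus strand), a gene of lumbar motor neurons, had 40.8, 0 and 1.01 normalized counts in labelled deficient libraries, against 67.1, 1.11 and 144 in labelled control libraries. It thus had at most 1 read in labelled deficient replicates 2 and 3 and in labelled control replicate 2, and was present in the remaining 3 libraries across both groups. The log2 difference was −2.65 with a 95% interval of −6.85 to 1.55 (limma adjusted p = 0.621). It was −1.45 without labelled control replicate 3, −1.59 without labelled deficient replicate 2, −4.28 without labelled deficient replicate 1 and −4.50 without labelled control replicate 2. Its within-group SD of 3.07 on the log2 scale was at the 99.8th percentile among genes that averaged 10 or more. Its neighbour Hoxc9 followed the same order of libraries within each group, with 15.2, 2.16 and 9.10 normalized counts in labelled deficient libraries, against 30.1, 4.44 and 64.1 in labelled control libraries (log2 difference −1.47 ± 0.96, SE, limma adjusted p = 0.601). That difference was −0.70 without labelled control replicate 3, −0.80 without labelled deficient replicate 2 and −2.49 without labelled control replicate 2.

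Hoxa10 (ENSMUSG00000000938, chromosome 6, 52231197 to 52240854, minus strand), which patterns lumbar vertebrae and the uterus, had 205, 93.9 and 111 normalized counts in labelled deficient libraries. In labelled control libraries it had 274, 72.1 and 422. The lowest and the highest library were thus both labelled control, 5.85-fold apart, and the groups overlapped fully (log2 difference −0.65 ± 0.61, SE, limma adjusted p = 0.725). Leaving out 1 library moved it between −0.13, without labelled control replicate 3, and −1.39, without labelled control replicate 2. Hoxa9, a regulator of blood stem cells as well as of axial position, had 291, 169 and 217 in labelled deficient libraries, against 272, 139 and 388 in labelled control libraries. Hoxd9 had 38.0, 24.8 and 30.3 in labelled deficient libraries, against 32.7, 11.1 and 67.1 in labelled control libraries, and its lowest and highest library were again labelled control, 6.05-fold apart. Hoxb9 varied least of the posterior genes, with 300, 190 and 280 normalized counts in labelled deficient libraries, against 288, 236 and 311 in labelled control libraries.

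Only traces were left past paralogue 10 and, within paralogue 10, for Hoxd10. Hoxa11, a limb and kidney gene, had 5.70, 1.08 and 0 normalized counts in labelled deficient libraries, against 6.88, 1.11 and 15.03 in labelled control libraries. Hoxd10 had 2.85, 0 and 3.03 in labelled deficient libraries, against 1.72, 0 and 5.01 in labelled control libraries. Reads of Hoxc13 were found in labelled control replicate 3 alone, 5 in number. Hoxa11 and Hoxd10 overlapped between groups, and labelled control replicate 3 was the highest library in each.

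The same library was therefore at the top in every posterior gene with enough counts. Of the 26 Hox genes with a mean of at least 10, labelled control replicate 3 was the highest library in 13, namely in all 6 posterior, 7 of 15 central and 0 of 5 anterior genes, where it was the highest for 16.7% of all such genes. The lowest library of the 6 posterior genes was labelled deficient replicate 2 in 3 and labelled control replicate 2 in 3. The within-group SD of the log2 value had a median of 0.13 in anterior, 0.23 in central and 0.97 in posterior genes, beside 0.154 over the 15157 genes that averaged 10 or more. At or above the 90th percentile of that spread stood 5 of the 6 posterior genes and 1 central gene, Hoxc5.

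**Figure D4:**
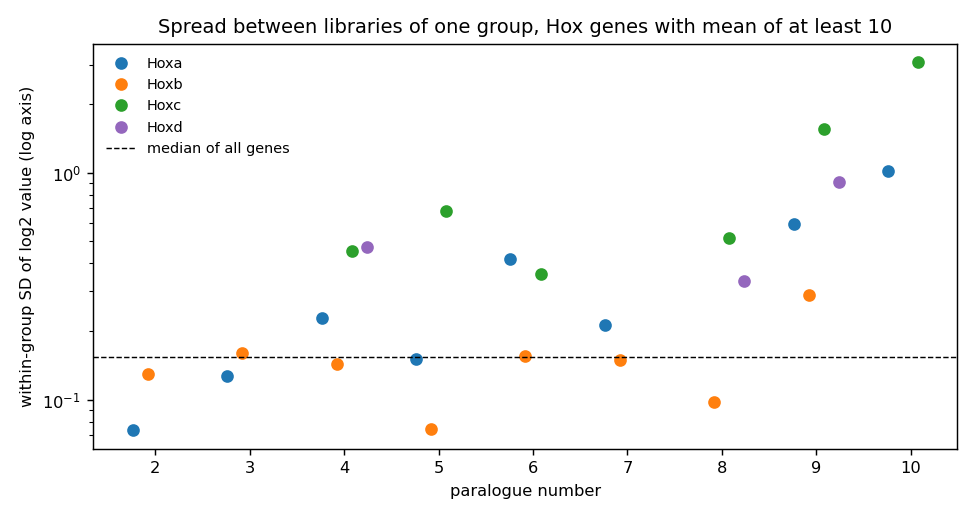
Within-group SD of the log2 value, on a log axis, against paralogue number for Hox genes with a mean of at least 10, coloured by cluster; the dashed line is the median of all such genes, 0.154. Hoxa2 and Hoxb5 lie at 0.07 and Hoxc10 lies at 3.07.

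As a share of the summed Hox level per kb, posterior genes took 6.81, 3.94 and 5.17% in labelled deficient libraries, against 7.73, 4.19 and 11.2% in labelled control libraries. Labelled control replicate 3 stood highest, and replicate 2 of each group lowest. The means were 5.31 ± 1.44% in labelled deficient libraries and 7.69 ± 3.48% in labelled control libraries (SD, n = 3 each), a difference of −2.38 percentage points that was smaller than the spread among the labelled control libraries. Without labelled control replicate 3 the difference was −0.65 points. Anterior genes took 23.7, 27.8 and 27.4% in labelled deficient libraries, against 22.9, 26.6 and 19.9% in labelled control libraries, so the ranges overlapped. The central share was nearly the same in every library, between 67.4 and 69.5% in labelled deficient libraries and between 68.9 and 69.3% in labelled control libraries.

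Summed anterior levels per kb were 980, 1029 and 1074 in labelled deficient libraries, against 926, 934 and 834 in labelled control libraries, without overlap. Summed posterior levels per kb were 281, 146 and 202 in labelled deficient libraries, against 312, 147 and 467 in labelled control libraries, with overlap. The share of cluster Hoxc was 3.596, 2.57 and 2.14% in labelled deficient libraries, against 5.06, 3.92 and 8.10% in labelled control libraries, also without overlap. Among the 4 libraries with Y-linked expression, labelled deficient replicate 3 had the lowest Hoxc share and labelled control replicate 3 the highest. The brown fat gene Ucp1 had 7.60, 7079 and 5.05 normalized counts in labelled deficient libraries, against 1711, 5365 and 0 in labelled control libraries. Replicate 2 of each group, lowest in the posterior share, was highest in Ucp1, and likewise in Adipoq, Plin1 and Cidec. Lep differed, with 7.74, 38.8 and 59.1 in labelled control libraries, highest in replicate 3. Adipoq had 575, 5082 and 1010 there. Replicate 3, highest in the posterior share, thus stood above replicate 1, as it did in Plin1 and Cidec. Whether fat left on the vessel takes part in the posterior values was not tested. Of 6 markers of neighbouring organs, Umod, Slc34a1 and Cyp11b1, of kidney and adrenal gland, were at 0 in all libraries. Star, Alb and Apoa1, of adrenal gland and liver, were detected. Alb had 49.4, 241 and 27.3 normalized counts in labelled deficient libraries, against 0, 71.0 and 9.02 in labelled control libraries. Star stood between 18.9 and 54.0 and Apoa1 between 2.58 and 17.3. The part of such tissue in the Hox values was not tested.

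**Figure D5:**
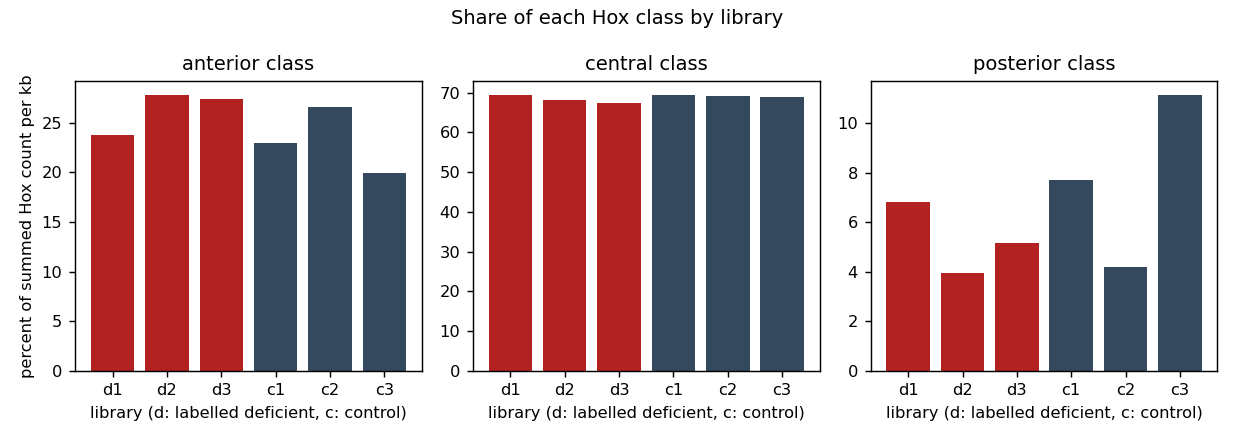
Share of the summed Hox count per kb taken by anterior, central and posterior genes in each library (bars, in percent; labelled deficient red, labelled control dark). The posterior share runs between 3.94 and 11.2%, with replicate 2 of each group low and labelled control replicate 3 high.

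The median log2 difference of the 8 tested posterior genes was −0.40, with 1 of 8 above 0. It was −0.09 without labelled control replicate 3 (3 above 0), −1.05 without labelled control replicate 2 and −0.19 without labelled deficient replicate 2 (4 above 0). It thus moved with single libraries of both groups. Within the 4 libraries with Y-linked expression, in which labelled deficient replicate 3 alone stands for its group, it was −0.52, with 3 above 0, and the anterior median was 0.37.

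HOX proteins bind DNA together with TALE homeodomain cofactors of the PBX, MEIS and PKNOX families. All 9 cofactor genes were tested, and 0 were called by limma in either direction (background 0.135%). Meis2, one of the more abundant, had 1806, 1414 and 1793 normalized counts in labelled deficient libraries, against 2002, 1379 and 2012 in labelled control libraries, with overlap. In 2 of the 9, Pbx3 and Meis3, all labelled deficient libraries were higher (background 8.80%). The lowest p values belonged to Pbx2, with a log2 difference of 0.18 ± 0.09 (SE), and Meis3, with 0.15 ± 0.10.

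A chosen list of noncoding genes inside the clusters held 17 with values. Of these 10 were tested and 0 called by limma, where 0.135% of all genes were. Hotairm1, of the Hoxa cluster, had 270, 278 and 287 normalized counts in labelled deficient libraries, against 251, 318 and 283 in labelled control libraries, and Hoxaas2 had 203, 209 and 217 in labelled deficient libraries, against 192, 187 and 190 in labelled control libraries. Hoxaas2 did not overlap between groups, but the log2 difference was only 0.14 ± 0.11 (SE). The genes of lowest p, Halr1 and Hoxa11os, each had fewer than 9 normalized counts in every library. Hotair and Hottip, of the posterior ends of Hoxc and Hoxa, had no reads.

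The clusters also carry the microRNA genes of the miR-10 and miR-196 families, which were looked at after their values were known because miR-196 is known to target Hox mRNAs. Their mature sequences, from RefSeq on GRCm38.p6, are shown with the seed (bases 2 to 8) in capitals, since 2 seeds cover all 4.
miR-10a-5p (Hoxb cluster): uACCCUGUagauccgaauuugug
miR-10b-5p (Hoxd cluster): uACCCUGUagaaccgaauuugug
miR-196a-5p (Hoxb and Hoxc clusters): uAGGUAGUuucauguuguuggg
miR-196b-5p (Hoxa cluster): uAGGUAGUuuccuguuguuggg
In a library of polyadenylated RNA, reads on these genes come from longer transcripts across the hairpin and do not measure the mature microRNA. Mir10a had 19.9, 11.9 and 15.2 normalized counts in labelled deficient libraries, against 25.8, 7.76 and 26.05 in labelled control libraries, with overlap. Mir196a-1, upstream of Hoxb9, had 16.1, 15.1 and 19.2 in labelled deficient libraries, against 34.4, 17.7 and 35.1 in labelled control libraries, with overlap in replicate 2 of the labelled control group. Mir196a-2 and Mir196b had no reads.

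Retinoic acid and CDX factors set Hox expression in the embryo. Of 22 genes for retinoic acid handling, its receptors and CDX factors, 18 were tested and 0 were called by limma (background 0.135%). At an unadjusted p under 0.05 stood 7, of which 5 were higher and 2 lower in labelled deficient libraries, against a background of 12.2%. DESeq2 called 3 (Aldh1a1, Rarb and Dhrs3), against a background of 4.38%. Aldh1a1, which makes retinoic acid, had 192, 218 and 243 normalized counts in labelled deficient libraries, against 373, 482 and 887 in labelled control libraries. All labelled deficient libraries were lower (log2 difference −1.32 ± 0.29, SE, limma adjusted p = 0.132). Crabp2, which carries retinoic acid to the nucleus, had 25.6, 16.2 and 12.1 in labelled deficient libraries, against 4.30, 3.33 and 6.01 in labelled control libraries, all higher in the labelled deficient ones (1.74 ± 0.42, SE, limma adjusted p = 0.167).

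Dhrs3, which returns retinaldehyde to retinol, had 7449, 4678 and 5969 normalized counts in labelled deficient libraries, against 4718, 4068 and 3794 in labelled control libraries, with a slight overlap (log2 difference 0.50 ± 0.16, SE, limma adjusted p = 0.272). Rarb, a receptor gene that retinoic acid itself induces, had 609, 462 and 450 in labelled deficient libraries, against 386, 296 and 336 in labelled control libraries, without overlap (0.57 ± 0.15, SE, limma adjusted p = 0.199). Cdx2 and Cdx4 had no reads.

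Polycomb and Trithorax proteins hold Hox genes silent or active after the embryo. All 24 of their genes were tested, 0 were called by limma (background 0.135%), and 5 had an unadjusted p under 0.05, 2 higher and 3 lower in labelled deficient libraries (background 12.2%, 6.36% higher and 5.79% lower). The 2 higher genes were Jarid2 and the X-linked Kdm6a, which had 1970, 1945 and 1300 normalized counts in labelled deficient libraries, against 1327, 1115 and 1277 in labelled control libraries, and so was high in the 2 libraries with the female pattern alone. Jarid2, a partner of the Polycomb complex that methylates histone H3, had 1045, 1009 and 1000 normalized counts in labelled deficient libraries, against 747, 733 and 947 in labelled control libraries, without overlap (log2 difference 0.34 ± 0.11, SE, limma adjusted p = 0.270). Rnf2, the ubiquitin ligase of the other Polycomb complex, had 1073, 1115 and 1026 in labelled deficient libraries, against 1202, 1246 and 1298 in labelled control libraries, without overlap (−0.22 ± 0.07, SE, limma adjusted p = 0.282). The most abundant genes, Rbbp4 and Ash1l, overlapped between groups.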

How the data were processed

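RNA of aortic media and intima was sequenced in 6 libraries (TruSeq Stranded mRNA kit, paired-end 50 bp, per the labels' protocols). The build GRCm38 and the tools HISAT2 2.2.1, featureCounts 2.0.1, bcl2fastq 2.20, R 4.2.0 and DESeq2 1.36.0 are listed per the submitters' processing notes. The sources used here name neither the annotation nor a strand setting for the counting. The deposited table holds a normalized count signal per gene and library, which the values show to be read counts divided by 1 factor per library. Beside it stand the authors' log2 fold change with its error, a test score, a p-value and an adjusted p-value.

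Whole reads were recovered from the deposited signal: 100% of values were whole within 0.001 in each library, 30887855 to 38600604 reads in all. In labelled control replicate 3 and labelled deficient replicate 3 the step per read was near 1 (1.00 and 1.01).

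Genes with a mean of at least 1 (20669) were fitted with limma 3.58.1 (trend) on log2(value + 1), a scale that understates changes of low genes. P-values were two-sided, adjusted over all genes tested (Benjamini-Hochberg), and called under 0.05. edgeR 4.0.16 (quasi-likelihood) and DESeq2 1.42.0 on recovered reads were alternatives. The scripts (R 4.3.3, Python 3.11.15) were tested on simulated data. Exon lengths and positions came from GENCODE M21, which matched 55141 of the 55487 gene IDs and all 39 Hox IDs.

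Values in every library are given for Hox genes with the 3 lowest p, with groups that do not overlap, with the 5 highest levels per kb, or at the ends of the paralogue range with a mean of at least 10. Of each other list the 2 of lowest p and the 2 of highest mean are named. Further genes were chosen after their values were seen, and some results that the rule takes are not reported here. Members and lists were chosen with earlier results of these data known. Nothing in the sources used here says that each library came from a separate animal, so the p-values cover only the spread of these samples, which may be technical.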

Additional observations from a re-analysis of the deposited data

How the results depend on the processing

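The count of Hox genes called was 0 under every alternative except DESeq2 (1), and 0 when any 1 library was left out. The count over all genes was 28 and varied more: 91 without a filter on low values, 1 with a mean of at least 10, 1 with edgeR, 713 with DESeq2, 0 in libraries with Y-linked expression and 0 to 427 when 1 library was left out. Over the 6 further lists, with 9, 10, 16, 18, 24 and 30 genes tested, it was 0. DESeq2 called 4 there, where it called 4.38% of all genes, and leaving out 1 library gave 0 to 1. The cause was not tested. Of 389 values of 28 Hox genes under alternatives, 371 kept direction and side of the threshold, 17 changed sign (in 7 genes) and 1 was the DESeq2 call of Hoxa2. Sign changes were seen for Hoxd9 (−0.25 by edgeR and −0.25 by DESeq2), and in libraries with Y-linked expression for Hoxb9 (0.018) and Hoxd10 (0.67). When 1 library was left out the ranges were −0.20 to 0.050 for Hoxa7, −0.56 to 0.18 for Hoxa9, −0.036 to 0.12 for Hoxb2, −0.026 to 0.15 for Hoxb4, −0.26 to 0.068 for Hoxb9, −0.70 to 0.63 for Hoxd10 and −0.60 to 0.65 for Hoxd9. Leaving out 1 library moved the posterior share difference between −4.14 and −0.65 points and the posterior median between −1.05 and −0.09. Counts not divided by exon length gave a share difference of −2.55 points, and the length of the longest coding transcript −2.16 points. No paired analysis was possible because the labels carry library names and no replicate numbers. With 3 libraries a group, both sexes in 1 group and a wide spread within groups at paralogues 9 and 10, differences smaller than that spread could not be seen there.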

Other observations

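Other regulators of vessel position, the pharyngeal arch and the outflow tract were measured alongside the Hox genes. Of 35 such genes 30 were tested, limma called 0 (background 0.135%), and 3 had an unadjusted p under 0.05 (background 12.2%). Pax1, a gene of pharyngeal pouches and the vertebral column, had 133, 86.3 and 83.9 normalized counts in labelled deficient libraries, against 205, 130 and 238 in labelled control libraries, with a slight overlap (log2 difference −0.90 ± 0.27, SE, limma adjusted p = 0.250); DESeq2 called it with an adjusted p of 0.0446. Mef2c and Prrx1, the most abundant, had log2 differences of −0.11 ± 0.08 and −0.13 ± 0.06 (SE). Nkx2-5 and Hand1 had no reads, and the cardiac gene Gata4 had at most 7.55 normalized counts.

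Genes just outside the clusters showed no difference past the threshold. Of 19 flanking genes 16 were tested, limma called 0 (background 0.135%) and 0 had an unadjusted p under 0.05 (background 12.2%), while edgeR and DESeq2 also called 0 (backgrounds 0.00484% and 4.38%). Cbx5, beside the Hoxc cluster, had 8499, 7690 and 8698 normalized counts in labelled deficient libraries, against 8282, 8914 and 8285 in labelled control libraries. Tax1bp1, on the Hoxa side, had 6749, 7062 and 7557 in labelled deficient libraries, against 7635, 7897 and 7395 in labelled control libraries, with overlap. Lnpk and Calcoco1 had the lowest p, with log2 differences of −0.20 ± 0.11 and −0.12 ± 0.07 (SE). Evx1 and Evx2, homeobox genes at the 5′ ends of Hoxa and Hoxd, had no reads.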
